A study of Homo sapiens with 6 samples.

Results

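The open chromatin of the clustered protocadherin locus was examined in sorted WA09 cells, a human embryonic stem cell line. The members were chosen by position alone: every open region of the deposited table whose midpoint lay between 140.15 and 140.90 Mb of chromosome 5 in hg19. There were 43 such regions among the 118556 of the table (0.0363%). By the same midpoints, 14 lay in the alpha window (140.15 to 140.40 Mb), 13 in the beta window (140.42 to 140.64 Mb) and 16 in the gamma window (140.70 to 140.90 Mb), and 0 lay between the windows. Regions are numbered here within each window in genome order.

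The protocadherins of these clusters are cadherin-like proteins of the cell surface, known chiefly from neurons, where each cell uses its own combination of them and the proteins recognise their own kind on neighbouring membranes. Each variable exon of the alpha and gamma clusters has a promoter of its own and is spliced to constant exons shared within the cluster, whereas each beta gene is a single exon with its own promoter. The architectural protein CTCF and cohesin bring distant enhancers to these promoters, and one such enhancer, HS5-1, is known to lie between the last alpha exons and the beta genes. The C-type genes at the far end of the alpha and gamma clusters are used more evenly between cells than the others.

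The assay was FAST-ATAC, which reads out open chromatin as the places where Tn5 transposase can insert adapters. Libraries came from the population sorted as GCTM-2highCD9highEPCAMhigh (the high population, 3 replicates) and from that sorted as GCTM-2midCD9mid (the mid population, 3 replicates, titled low by the submitters). All 6 libraries are of the same line under the same maintenance protocol, and the labels of no library name a treatment. The replicates are called biological in the study's methods although the labels name no separate cultures, so p-values measure the spread between these libraries. Levels are in CPM, the count of a region scaled to a library's total after TMM normalization. The 6 libraries held 15486251 to 29025274 counts in regions, of which 0.0414% to 0.0518% fell in the protocadherin locus.

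The RefSeq annotation (GRCh38.p14) orders 53 protein-coding genes in these clusters, 15 alpha, 16 beta and 22 gamma, with SLC25A2 and TAF7 between the beta and gamma genes and DIAPH1 after the gamma genes. The regions carry hg19 positions, so they were not matched to single genes. Promoter sequence was at hand for 47 of the 53 genes (52 entries, since some genes have more than 1). A few stretches are shown because they carry the letters CGCT and because the most frequent letters before CGCT differ between the clusters. CGCT is the core of a known conserved element of these promoters, but 4 letters alone do not mark the element. In PCDHAC2 and PCDHB1 the letters before CGCT differ from those of the others shown for their cluster. Whether these 2 promoters hold the element was not tested. Each stretch has 26 bases, is read 5′ to 3′ on the plus strand, and has CGCT in capitals.
PCDHA1: ggccacatgatgtCGCTgtacaccac
PCDHA4: agccacatgatgtCGCTctttaccac
PCDHAC2: tgagccctcctacCGCTccctttccc
PCDHB1: tggggagttgagtCGCTcaatgcaaa
PCDHB2: agacgcggggtggCGCTgcagcctta
PCDHB15: caacgcatggtggCGCTgcaggctaa
PCDHGA3: ggcctcttagtgtCGCTgttgaccac
PCDHGB4: tgactctgggcgcCGCTgttggccaa

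In GRCh38.p14 these stretches lie at chr5:140786089-140786114 for PCDHA1, chr5:140806982-140807007 for PCDHA4, chr5:140966422-140966447 for PCDHAC2, chr5:141051277-141051302 for PCDHB1 and chr5:141094547-141094572 for PCDHB2. Those of PCDHB15, PCDHGA3 and PCDHGB4 lie at chr5:141245317-141245342, chr5:141343770-141343795 and chr5:141387620-141387645. CGCT on the sense strand, starting 100 to 20 bases before the start, was found in 43 of the 52 entries (82.7%), against 23.8% of all 34796 promoters of the table, a window chosen after the letters were seen. On both strands of the whole entry (250 bases before the start and 50 after it), CGCT was in 98.1% of the clustered entries and 69.9% of all. AGGGGGC was in 0 of the 52 entries and 14.3% of all promoters, and GNGGCAG in 11.5% and 37.5%, both on both strands. Base composition was not taken into account in these shares.

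The most frequent run of 9 letters ending in CGCT differed between clusters, but single promoters of different clusters shared letters. PCDHA11 in alpha and PCDHGA4 in gamma both had ggtgtCGCT. The run gatgtCGCT was the most frequent in alpha and occurred in 9 of 13 alpha entries, in 0 of the 39 others and in 0.0747% of all promoters. The run ggtggCGCT occurred in 13 of 14 beta entries, PCDHB1 being without it, in 0 of the 38 others and in 0.305% of all promoters. In gamma the most frequent run was ggcgcCGCT, in 7 of 25 entries, in 0 of the 27 others and in 0.494% of all promoters. The most frequent runs were chosen after the sequences were seen and were counted anywhere in an entry. Among the stretches with CGCT starting 100 to 20 bases before the start, they were in 9 of 12 (alpha), 11 of 12 (beta) and 5 of 19 (gamma). The GC content of the promoter entries had a median of 37.3% in alpha, 40.85% in beta and 47.3% in gamma. In alpha it reached 63.0% in PCDHAC2 and 66.0% in PCDHAC1. The highest beta entry had 46.3%, and the highest gamma entry, of PCDHGB6, had 65.0%. These runs describe the reference sequence, and no region of the accessibility data was read at base level.

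Every region of the locus had at least 20 reads in each library. The 43 regions had a median width of 1115 bp, against 879 bp over all regions, and a median of 5.21 CPM per kb against 4.43. Their levels ran from 3.10 to 17.8 CPM per kb, and wider regions had the higher levels per kb (Spearman's rho 0.88 over the 43 regions, which share the same 6 libraries). The beta window was the least accessible per region, with a median of 3.86 CPM per kb, and alpha (5.50) and gamma (6.07) lay above it. Of the 43 regions, 9 were in the top 10% of all regions by CPM per kb, and 8 were in the top 10% by width.

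**Figure D1:**
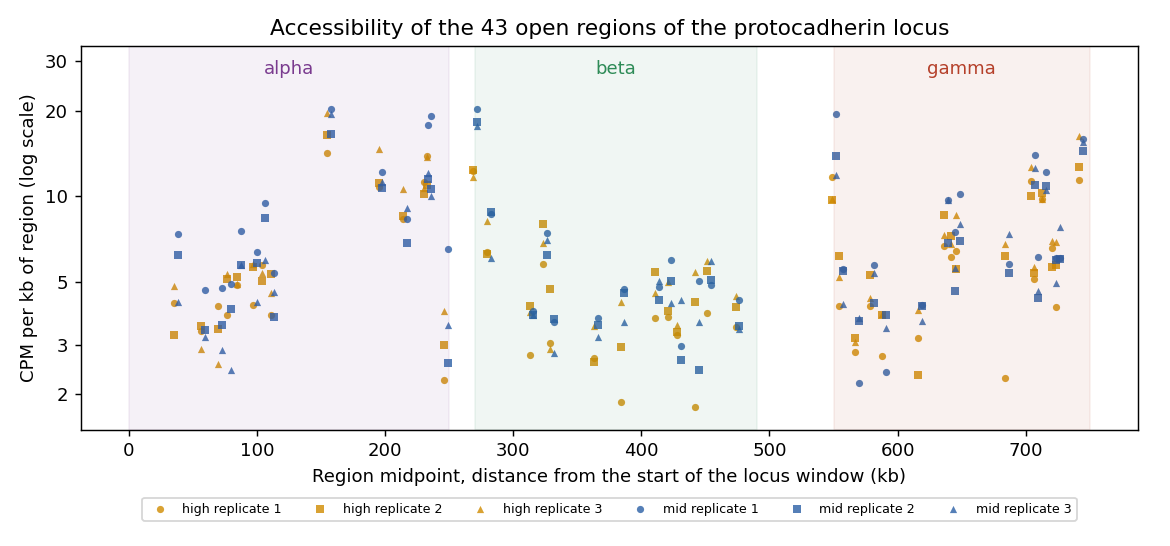
Accessibility of each open region in each library, in CPM per kb of region on a log axis, against the distance of the region's midpoint from the start of the locus window in kb. Regions of 3 to 7 CPM per kb fill the first part of alpha and most of beta, and the 6 highest mean levels are at alpha regions 9, 12 and 13, beta region 1, and gamma regions 1 and 16.

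Within the alpha window the level changed along the sequence. Alpha regions 1 to 8, which cover the first part of the window, had 3.49 to 6.66 CPM per kb, and alpha regions 9 to 13 had 8.63 to 17.8. Alpha region 9 (chr5:140305251-140307582, hg19, 2332 bp) was the most accessible member per kb, above 98.4% of all regions. It had 33.1, 38.4 and 45.8 CPM in high replicates 1, 2 and 3, and 47.4, 38.6 and 45.8 CPM in mid replicates 1, 2 and 3. The 2 populations overlapped there, with the lowest value in high replicate 1 (log2 fold change -0.17, high over mid, standard error 0.13, adjusted p = 0.389 in edgeR's quasi-likelihood test). Alpha region 13 (chr5:140383224-140385177) came next per kb at 13.1, and had 37.6 CPM in mid replicate 1 against 19.5 to 27.2 in the other libraries. The lowest in CPM, not divided by width, was alpha region 14 (chr5:140397428-140397962, 535 bp), where high libraries had 1.64 ± 0.458 CPM and mid libraries 2.25 ± 1.10 CPM (SD, n = 3 each).

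In the beta window, region 1 (chr5:140419051-140421234, 2184 bp) had 15.5 CPM per kb, and the other 12 regions had 3.20 to 7.40. The midpoint of beta region 1 is 142 bp inside the window, and that of gamma region 1 is 331.5 bp inside its own, so both stand at an edge, before the other regions of their window. Of the rest of the beta window, region 2 (chr5:140430241-140431724) was the highest, with 9.42, 9.29 and 12.2 CPM in the high libraries and 12.9, 13.1 and 8.97 CPM in the mid libraries. The mid libraries did not all lie above the high ones there, since mid replicate 3 was the lowest of the 6. Beta region 5 (chr5:140479709-140480270) was the lowest in CPM, not divided by width, where high libraries had 1.996 ± 0.564 CPM and mid libraries 1.89 ± 0.279 CPM (SD, n = 3 each).

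In the gamma window, the widest regions stood at the end. Gamma regions 2 to 6 had 3.10 to 5.11 CPM per kb, and regions 7 to 9 had 6.31 to 8.14. The 4 regions at the end of the window (13 to 16) were 2373 to 3776 bp wide. Gamma region 16 (chr5:140891391-140895166) was the widest of the locus and held 7608 reads over the 6 libraries. It had 43.2, 48.0 and 61.6 CPM in the high libraries and 60.3, 54.7 and 58.9 CPM in the mid libraries, which overlapped, high replicate 3 being the highest of all. Gamma region 3 (chr5:140718071-140718616) was the lowest in gamma both in CPM and per kb, where high libraries had 1.64 ± 0.0932 CPM and mid libraries 1.74 ± 0.468 CPM (SD, n = 3 each).

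The comparison of the 2 populations asked whether the high population, which the study describes as the more self-renewing, differs in chromatin accessibility at these neural cell-surface genes. One of the 43 regions was called at a Benjamini-Hochberg adjusted p under 0.01, beta region 1, and it was more accessible in the mid population. No region was called in the other direction: 0 of 43 in edgeR's quasi-likelihood test, 0 in DESeq2, and 0 at an unadjusted p under 0.05 in either tool. In other edgeR settings some regions had an unadjusted p under 0.05 toward the high population, and 0 were called. There were 3 without replicate 1, 3 without high replicate 1 and 4 without mid replicate 1. With loess offsets on average level there was 1, and with loess offsets on region width 2. Over all regions of the table, 3.77% were called higher in the mid population and 2.32% higher in the high population, together 6.09%. The 1 call, toward the mid population, is 2.33% of the 43, and a count this small does not set the members apart. At an adjusted p under 0.05, beta region 1, gamma region 1 and alpha region 7 passed, 3 of 43 toward the mid population and 0 toward the high population, against 7.08% and 6.03% of all regions.

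Beta region 1 had 26.8, 27.1 and 25.6 CPM in high replicates 1, 2 and 3, and 44.5, 40.0 and 38.6 CPM in mid replicates 1, 2 and 3. Every mid library lay above every high library, with a gap larger than the range within either population. The means were 26.5 ± 0.800 and 41.0 ± 3.11 CPM (SD, n = 3 each), 1.55-fold higher in the mid population (95% interval 1.30 to 1.85). The log2 fold change was -0.63 (SE 0.13, edgeR quasi-likelihood adjusted p = 0.000413), and the differences within the same-numbered pairs were -0.73, -0.56 and -0.59. The region ranked 2072 by p-value among all regions. It lies before the other beta regions and after the last alpha region, the interval in which HS5-1 is known to lie; whether the region is that enhancer was not tested.

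Among regions at least 2000 bp wide, 20.7% of the whole table were called higher in the mid population and 1.93% higher in the high population. In the protocadherin locus 8 regions were that wide, and beta region 1 was the 1 called (12.5%). The median log2 fold change of these 8 was -0.19, against -0.22 for all regions of that width. Among the 35 narrower members 0 were called, against 1.49% (mid) and 2.37% (high) of the narrower regions of the table.

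Without replicate 2, the call of beta region 1 was lost: leaving out high replicate 2, mid replicate 2 or both gave adjusted p of 0.0327, 0.0649 and 0.0661, with the log2 fold change at -0.66 in each. Over the 18 other settings of the fit, its log2 fold change lay between -0.66 and -0.44 and 15 kept the call, with adjusted p from 6.0e-05 to 0.0661. With loess offsets on average level it fell by 0.44 on the log2 scale from mid to high (adjusted p = 0.00721 in edgeR's quasi-likelihood test).

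**Figure D2:**
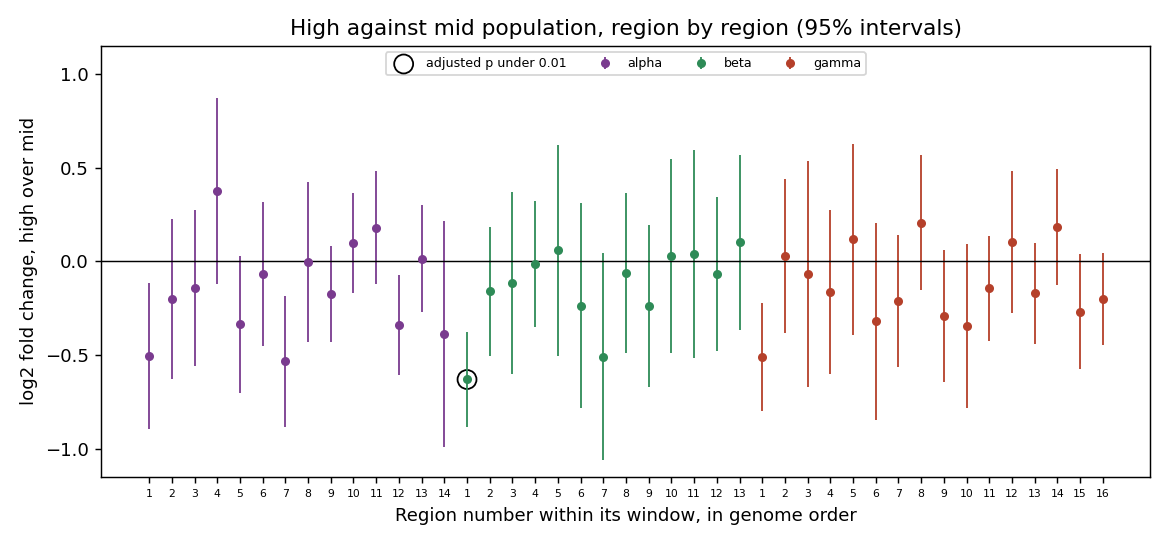
Log2 fold change of the high over the mid population for each of the 43 regions in genome order, coloured by window, with 95% intervals from edgeR's quasi-likelihood fit. Beta region 1, at -0.63, is the 1 region past the threshold (open circle), and 30 of the 43 points lie below 0.

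Gamma region 1 (chr5:140699571-140701093, 1523 bp), the second highest gamma region per kb, came closest to the threshold among the others. It had 17.8, 14.8 and 14.9 CPM in the high libraries and 29.7, 21.1 and 18.1 CPM in the mid libraries. The populations did not overlap, but the gap between the highest high and the lowest mid library was small. Its log2 fold change was -0.51 (standard error 0.14) and its adjusted p was 0.0118 in edgeR's quasi-likelihood test. The likelihood ratio test, RLE size factors and loess offsets on region width each placed it under 0.01, at 0.008125, 0.00883 and 0.009985. With no replicate block it was at 0.0800, in DESeq2 at 0.0280, with total counts at 0.0266 and with loess offsets on level at 0.0323. Over the fits that left out a pair or a library, it ran from 0.00291 to 0.234. In the RefSeq order TAF7 and SLC25A2 lie between the beta and gamma genes, and which gene this region belongs to was not analysed here.

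Alpha region 7 (chr5:140254562-140255875) had 7.53, 6.58 and 7.07 CPM in the high libraries and 12.4, 11.04 and 7.86 CPM in the mid libraries. The high values were close together, and mid replicate 3 was only just above them (log2 fold change -0.53, standard error 0.18, adjusted p = 0.0335 in edgeR). Alpha region 1 (chr5:140186228-140187589) had 5.71, 4.43 and 6.56 CPM against 10.1, 8.44 and 5.79 CPM. Here mid replicate 3 lay below high replicate 3, so the populations overlapped (log2 fold change -0.50, standard error 0.19, adjusted p = 0.0732 in edgeR). Without replicate 3 both passed the threshold in edgeR, with adjusted p of 0.00916 for alpha region 7 and 0.00326 for alpha region 1. Without replicate 1 their adjusted p was 0.102 and 0.295, without replicate 2 it was 0.400 and 0.592, and in DESeq2 it was 0.117 and 0.262. The log2 fold change ran from -0.73 to -0.43 for alpha region 7 and from -0.87 to -0.31 for alpha region 1 when a pair or library was left out.

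With replicate 3 left out, the locus had 4 calls, alpha regions 1 and 7, beta region 1 and gamma region 1, and the same 4 were called when high replicate 3 or mid replicate 3 alone was left out.

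Alpha region 12 (chr5:140380748-140383156), named after its values were seen, had 27.05, 24.6 and 25.9 CPM in the high and 42.96, 27.7 and 29.1 CPM in the mid libraries. Its mid values did not overlap the high ones, and mid replicate 1 stood well above the other mid libraries (log2 fold change -0.34, standard error 0.13, adjusted p = 0.0804 in edgeR). These 5 regions, beta 1, gamma 1 and alpha 7, 1 and 12, were the members with an unadjusted p under 0.05. All 5 were higher in the mid population. They make up 11.6% of the members, against 27.8% of all regions and 25% of the 132 regions within 1 Mb on either side of the locus.

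**Figure D3:**
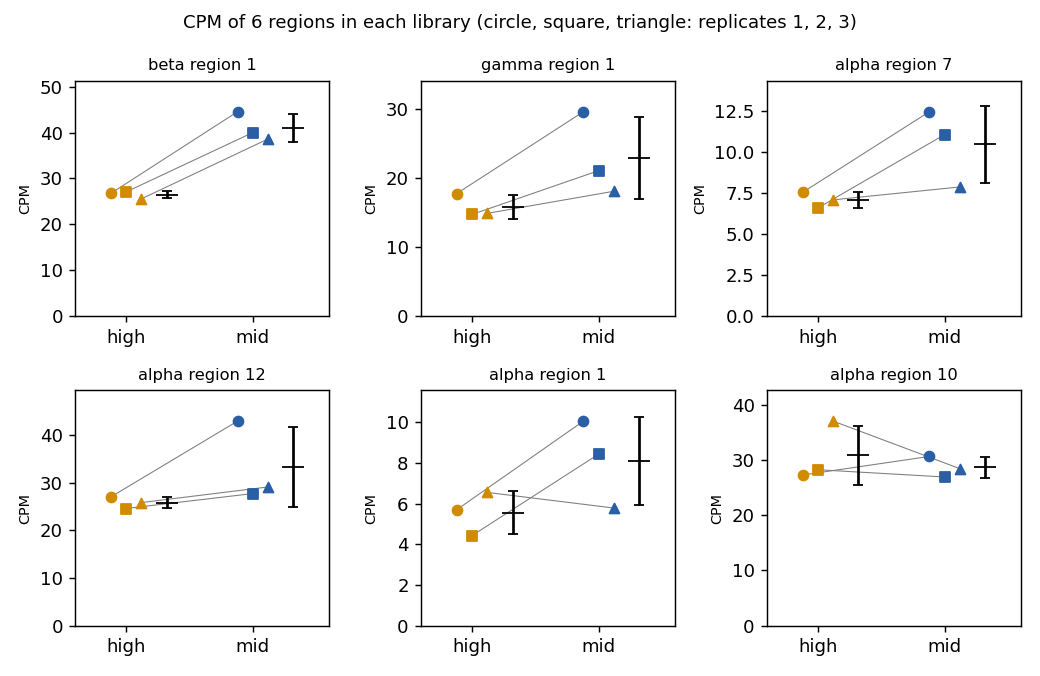
CPM in each library for 6 regions, with grey lines joining same-numbered replicates and black bars for the mean ± SD (n = 3). The mid values of beta region 1, 38.6 to 44.5 CPM, all lie above its high values, 25.6 to 27.1 CPM, while the populations overlap in alpha regions 1 and 10.

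The other members did not pass the threshold, and their values are given as such. The largest fold change toward the high population was at alpha region 4 (chr5:140228090-140228749), with 2.51, 3.38 and 3.52 CPM in the high and 3.23, 2.64 and 1.61 CPM in the mid libraries. These values overlapped, and the log2 fold change of 0.37 had a standard error of 0.25 (adjusted p = 0.329 in edgeR). Alpha region 10 (chr5:140345257-140347777, 2521 bp), the widest in alpha, had 30.9 ± 5.38 CPM in high libraries and 28.7 ± 1.87 CPM in mid libraries (SD, n = 3 each). Beta region 7 (chr5:140535039-140535643) had 1.14, 1.78 and 2.56 CPM against 2.85, 2.77 and 2.18 CPM, which overlapped (adjusted p = 0.221 in edgeR). Gamma region 15 (chr5:140873739-140876190) had 13.7 ± 3.49 CPM against 16.3 ± 2.51 CPM (SD, n = 3 each), with adjusted p = 0.249 in edgeR.

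The intervals give the precision behind these values. Members held from 231 to 7608 reads over the 6 libraries, never under 20 in a library, and standard errors of the log2 fold change ran from 0.12 to 0.30 with a median of 0.19. In 42 of the 43 regions the 95% interval of edgeR's fit lay within 2-fold in either direction, beta region 7 being the exception. In 22 it lay within 1.5-fold. The width of these intervals draws on a variance estimate shared across all regions, not only on a region's own libraries. Beta region 11, named after its values were seen, is among the 42. Its same-numbered pairs differed by -1.41, 0.78 and 0.57 on the log2 scale.

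The populations did not overlap in 6 of the 43 regions, all higher in the mid population: alpha regions 5, 7 and 12, beta region 1 and gamma regions 1 and 13, of which alpha 5 and gamma 13 were named after their values were seen. Over the table, 13% of regions had such values higher in the mid population and 12.9% higher in the high population, against 6 (mid) and 0 (high) here. All 3 pairs lay lower in the high population in 8 members (18.6%, against 22.4% of all regions) and higher in 1 (2.33%, against 25.3%).

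The direction over the members was mostly that of 1 pair of libraries. The median log2 fold change of the 43 regions was -0.14, with 30 (69.8%) below 0, against 0.033 and 46.5% over all regions. With total counts in place of TMM, 24 lay below 0. The median difference within the replicate 1 pair was -0.47, with 39 of 43 below 0, and within the replicate 2 and 3 pairs it was 0.0028 and 0.05, with 21 and 18 below 0. Over all regions the corresponding medians were 0.01, 0.03 and 0.03. Mid replicate 1 was the highest of the 6 libraries in 23 of the 43 members, and high replicate 1 was the lowest in 17. Without replicate 1 the median over the members was -0.03, and beta region 1 was still called (log2 fold change -0.60, adjusted p = 8.7e-05 in edgeR).

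**Figure D4:**
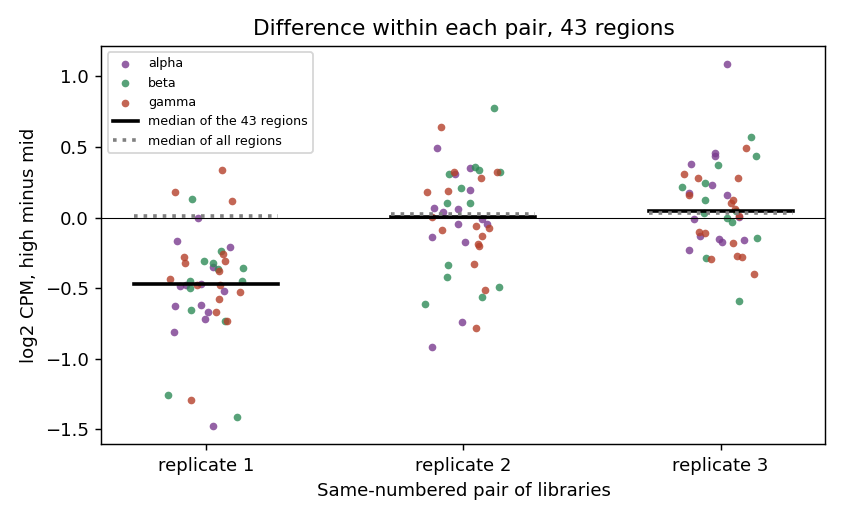
Difference of log2 CPM between the high and the mid library of each same-numbered pair, 1 point per region, coloured by window, with the median of the 43 regions (solid) and of all regions (dotted). The replicate 1 pair lies at -0.47, and the other pairs lie at 0.0028 and 0.05.

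The regions around the locus had a like skew. Among the 132 flanking regions, 90 (68.2%) had a log2 fold change below 0, with a median of -0.11. For all regions of chromosome 5 outside the locus, the flanks included, these values were 32.9% and 0.15. Of the flanking regions 4 (3.03%) were called higher in the mid population and 0 higher in the high population. Among the 7097 regions of chromosome 5 outside the locus, the flanks included, 84 and 233 were called. The summed flanks also differed most in the replicate 1 pair (-0.48, against -0.12 and -0.01 in replicates 2 and 3). What part the replicate 1 libraries have in these values beyond leaving them out was not tested.

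Summed over each window, the alpha regions held 168, 168 and 196 CPM in the high libraries and 233, 174 and 178 CPM in the mid libraries. The populations overlapped, with a log2 ratio of -0.13, high over mid (exact permutation test, two-sided, p = 0.5). The median alpha region in place of the sum gave -0.30 (p = 0.3 in the same exact permutation test). The gamma regions held 173, 184 and 209 CPM against 232, 196 and 208 CPM, which also overlapped (log2 ratio -0.17, exact permutation test, p = 0.3), and the median gamma region gave -0.083. The beta regions held 66.2, 77.1 and 78.7 CPM against 99.6, 89.6 and 86.4 CPM. Every mid library lay above every high library there (log2 ratio -0.31). The exact permutation test gave p = 0.1, which is the lowest value 3 libraries against 3 can reach. The median beta region in place of the sum gave a log2 ratio of -0.018 (exact permutation test, p = 1.0).

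The beta difference rested on beta region 1. Without it, an alternative chosen after the data were seen, the remaining 12 beta regions held 47.6 ± 7.18 CPM in high libraries and 50.8 ± 3.76 CPM in mid libraries (SD, n = 3 each), and their log2 ratio was -0.10 (exact permutation test, p = 0.7). With beta region 1 included, the beta window held, relative to the reads of the flanking regions, 4.32%, 4.48% and 4.16% in the high libraries and 4.66%, 4.80% and 4.55% in the mid libraries. These did not overlap (log2 ratio -0.11, exact permutation test, p = 0.1). Without region 1 they did, at 2.57%, 2.91% and 2.81% against 2.58%, 2.66% and 2.52%. The alpha and gamma windows scaled to the flanks had log2 ratios of 0.072 and 0.030 (exact permutation test, p = 0.5 and 0.4). The 43 regions together held 440 ± 39.5 CPM in high libraries and 499 ± 57.4 CPM in mid libraries (SD, n = 3 each), and the log2 ratio was -0.18 (exact permutation test, p = 0.3) or, scaled to the flanks, 0.021.

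**Figure D5:**
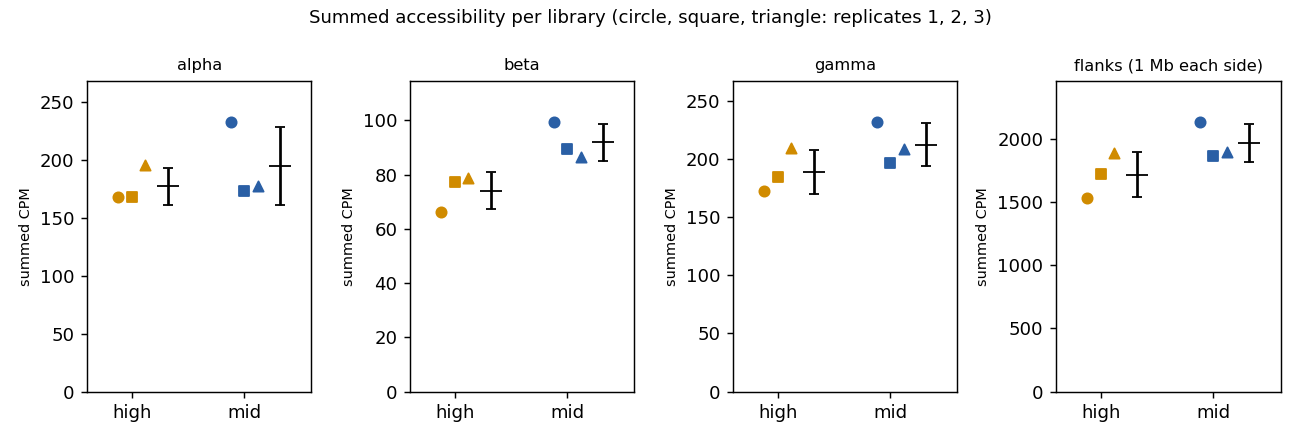
CPM summed over the regions of the alpha, beta and gamma windows and of the flanks within 1 Mb, in each library, with the mean ± SD (n = 3). The beta sums of the mid libraries, 86.4 to 99.6 CPM, lie above those of the high libraries, 66.2 to 78.7 CPM, and mid replicate 1 is the highest library in every panel.

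The non-clustered protocadherins, the regulators of these clusters and the defining genes of pluripotent cells were not analysed here, since positions of genes in hg19 were not used.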

How the data were processed

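FAST-ATAC was performed on 6 libraries of sorted WA09 cells. Per the study's methods, the authors' steps were trimming, alignment to hg19 by bwa (version 0.7.15 in the submitters' notes), removal of duplicates, a shift of each read toward its transposition site, and region calling by MACS on the replicates' merged alignments. The regions of both populations were then joined and blacklisted ones dropped. The deposited values are raw counts per merged region, without normalization. Region calls in single replicates are not known, since calling was on merged alignments. Starts, read as 0-based, are printed 1 higher.

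Counts of all 118556 regions were fitted with the quasi-likelihood test of edgeR 4.0.16 (R 4.3.3) after TMM scaling, with the replicate number as a block and Benjamini-Hochberg adjustment over all regions. A region was called under 0.01. Replicate numbers are from the sample titles. Deviations of same-numbered libraries from their group means correlated with r of 0.30, 0.19 and 0.23 over all regions. Differently numbered libraries had r of -0.26 to 0.06. Over the 43 members the same-numbered values were 0.19, -0.085 and 0.18. The differently numbered ones ran from -0.36 to 0.29, so the members alone do not show the pairing. The study's own model has a batch term whose coding is not given in the sources used here. DESeq2 1.42.0 and limma 3.58.1 (loess, span 0.3) gave alternatives. The fit was tested on simulated data whose changes were larger than that of any member. That test does not cover the fold changes seen here. Window sums were compared by exact permutation tests (scipy 1.17.1), whose p-values measure only the spread between these libraries. Read counts after PCR do not count independent molecules. Promoter sequences are from RefSeq (GRCh38.p14).

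Named regions were the called members and, per window, the 2 with the smallest p, the 2 highest per kb, the widest and the lowest, with the largest fold change in each direction. The members and lists were chosen with earlier results of these data known.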

Additional observations from a re-analysis of the deposited data

How the results depend on the processing

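The number of members called higher in the mid population was 1 with the replicate block and 1 with no replicate block. It was 2 with the likelihood ratio test, RLE size factors and loess offsets on region width, where gamma region 1 was added, and 3 at a threshold of 0.05. It ran from 0 to 4 over the fits that left out a pair or a single library, with 0 without replicate 2 or either of its libraries and 4 without replicate 3 or either of its libraries. With the block kept, leaving out 1 library removes most of what its partner adds. The number called higher in the high population was 0 in all settings run. Over all regions, 2747 (high) and 4472 (mid) were called with the replicate block, 280 and 1312 with no replicate block, 371 and 438 without replicate 2, 736 and 3170 in DESeq2, and 4971 and 3179 with total counts only. The median log2 fold change of the members ran from -0.22 to -0.0064 when a pair or library was left out, and total counts only moved it to -0.051 and the median of all regions to 0.12.

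Scaling to the flanking regions turned the log2 ratio of the sums from -0.13 to 0.072 in alpha, from -0.17 to 0.030 in gamma and from -0.18 to 0.021 over the locus. The median region in place of the sum gave -0.30 in alpha, -0.018 in beta, -0.083 in gamma and -0.055 over the locus. Leaving out libraries gave -0.26 to 0.046 for alpha, -0.40 to -0.18 for beta, -0.26 to -0.042 for gamma and -0.29 to -0.032 for the locus. Under the paired analysis (replicate block), exact sign-flip tests over 3 pairs, which cannot go below 0.25, gave 0.75, 0.25, 0.5 and 0.5 for the same log2 ratios (-0.13, -0.31, -0.17 and -0.18). Among the named regions that were not called, signs turned at alpha region 9 (0.052) and gamma region 16 (0.066) with loess offsets on average level, at gamma region 16 (0.084) with loess offsets on width, at beta region 5 under both (-0.061 and -0.0026), at alpha region 13 with no block (-0.042) and at gamma region 3 with total counts (0.022). Leaving out libraries gave ranges across 0 in the named alpha region 13 (-0.22 to 0.27), alpha region 10 (-0.051 to 0.23), alpha region 14 (-0.73 to 0.18), beta region 2 (-0.48 to 0.00073), beta region 5 (-0.093 to 0.20), gamma region 3 (-0.27 to 0.068) and alpha region 4 (-0.0046 to 0.74). Other members that were not called changed sign too: 5 with total counts, 3 with loess offsets on level, 5 with loess offsets on width, 1 in DESeq2, and 3 to 8 when a pair or library was left out. The cause was not tested.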
